A study of Abies pinsapo with 12 samples.

Results

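The 7 transcripts described here are assembled transcripts of Spanish fir (Abies pinsapo), an endemic conifer of southern Spain, whose best database match is a SANT domain-containing protein. They are ap_26114, ap_71523, ap_22702, ap_78725, ap_16559, ap_72450 and ap_14197, 7 of the 76481 transcripts counted. They were selected on the logFC and FDR by which the study placed them among the DE transcripts higher in green trees, so they were chosen by the difference between colours in these same 12 trees. That difference is therefore given as a description without a test, and no tree was left over in which it could be tested independently. Needles were sampled from adult, field-grown trees of bluish and of green needle colour at 1 site in 1 spring, with 6 trees of each colour and 1 RNA-seq library per tree. Young, still developing needles were left out, and needle colour was the only difference between the groups that the labels give. Genotype and relatedness of the trees are not given in the sources used here, so colour cannot be told apart from other differences between the individual trees, and each value rests on a single library per tree. The values were counts of reads per assembled transcript, given as CPM (the count scaled to the size of its library, after TMM), and logFC is bluish over green, so that a negative value is a higher level in green trees.

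The SANT domain is a short fold of helices named after Swi3, Ada2, N-CoR and TFIIIB, the proteins in which it was recognised. It resembles the DNA-binding repeat of MYB proteins, and in many chromatin-modifying complexes it contacts histone tails, so that an enzyme can act on the nucleosome. In plants, proteins with SANT or related MYB-like repeats include subunits of chromatin remodelling and histone-modifying complexes and a large number of transcription factors. A match to this domain alone therefore does not say which of these a transcript encodes.

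In the annotation used here, 6 of the 7 transcripts shared 1 best match, a protein of Sitka spruce (Picea sitchensis), and ap_71523 matched a protein of Amborella trichopoda. Transcripts that match the same protein may share reads, and how the mapping divided reads between them is uncertain, because their sequences were not used here. Whether the 6 are copies of a gene, separate genes or pieces of 1 gene was not tested, so the counts of transcripts and correlations given here need not be of independent genes. None of the 1714 annotated entries used here had a logFC above 0.949 in the fit made here. A SANT transcript more strongly higher in bluish trees would therefore not be among them. Only 1 other of these entries was described as a SANT domain-containing protein, ap_14096, which matched a protein of oak (Quercus lobata). It lay outside the thresholds of the study with logFC −0.48 in the fit made here, whereas the smallest change among the 7 was logFC −1.82 (ap_14197).

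Between 64978939 and 91973481 reads were counted per library, and TMM factors lay between 0.958 and 1.04. The 23352 transcripts that reached 2 CPM in 2 or more libraries, which held 98.7% to 99.3% of all counts per library, were compared. All 7 SANT transcripts were among them. Of the 7, ap_26114 and ap_72450 stayed below 2 CPM in every bluish tree, with highest values of 1.77 and 1.47 CPM. They entered through green trees alone. The set stayed fixed when trees were left out, so both were also fitted without some of the green trees that brought them in. A read pair gives 2 counts, so a count of 0 allowed up to 6 counts (3 read pairs), equal to 0.0681 to 0.0904 CPM in the different libraries, a limit that covers counting error only. The RuBisCO small subunit transcript ap_72505 and the chlorophyll a-b binding transcripts ap_86407 and ap_16219 lay between 0.292 and 26.6 CPM over the 12 trees. They were thus above that limit in each tree. Detection alone does not tell needles from another tissue, so the needle label was not tested. Green tree 3, which recurs below, had 73721208 reads counted and a TMM factor of 0.999.

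All 7 SANT transcripts were highest in green tree 3, and by a wide margin. Their level there was 3.79 to 6.94 times that of the next-highest tree and 16.9 to 81.1 times the median of the other 11 trees. Of the CPM summed over the 6 green trees, tree 3 made up 66.0% to 87.0%, with a median of 76.0% over the 7 transcripts. Over all 23352 transcripts tested, the median share of green tree 3 was 16.4%, and the median share of whichever green tree was highest was 20.6%. Green tree 3 was the highest of the 12 trees in 11.7% of the transcripts tested, more often than any other tree, and the other 11 trees ranged from 1272 to 2441 transcripts against its 2727.

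The most abundant in reads was ap_71523, the transcript with the Amborella match. In bluish trees it was at 0.565 CPM in the lowest tree, 2.38 CPM at the median and 8.22 CPM in the highest, tree 4. In green trees the lowest was at 1.07 CPM, the median was 4.43 CPM and the highest was at 88.9 CPM. Green tree 3 (88.9 CPM) and green tree 5 (13.9 CPM) lay above all bluish trees, and the other 4 green trees lay within the bluish range.

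The transcript ap_22702 was at 0.409, 1.48 and 5.04 CPM in the lowest, median and highest bluish tree. In green trees the same values were 0.711, 2.91 and 55.1 CPM, with green tree 5 next at 10.99 CPM. Its count was 4055 in green tree 3 and between 29 and 946 in the others, so all 12 values rested on more reads than the limit for a count of 0. The study also measured ap_22702 by RT-qPCR and reports it as lower in bluish needles. RT-qPCR values of single trees were not used here. For ap_26114, bluish trees lay between 0.311 and 1.77 CPM with a median of 0.597 CPM, and green trees between 0.330 and 25.4 CPM with a median of 1.75 CPM. Green trees 3, 4 and 5, at 25.4, 2.35 and 3.71 CPM, were the ones above all bluish trees.

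The transcript ap_14197 had the smallest fold range over the 12 trees, 34.0-fold. Bluish trees lay between 1.61 and 4.25 CPM with a median of 2.06 CPM. Green trees lay between 1.06 and 35.8 CPM with a median of 3.81 CPM, and green trees 1 and 2, at 1.12 and 1.06 CPM, were below every bluish tree. The transcript with the fewest reads, ap_72450, was at 0.0743, 0.491 and 1.47 CPM in the lowest, median and highest bluish tree, and at 0.152, 0.730 and 12.3 CPM in green trees. Its lowest value, in bluish tree 5, came from 6 counts and was thus at the limit that a count of 0 allows.

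The remaining transcripts, ap_78725 and ap_16559, shared a further feature. In bluish trees ap_78725 had no count in trees 5 and 6, was between 0.373 and 1.57 CPM in trees 1, 2 and 3, and reached 5.45 CPM in tree 4. In bluish trees ap_16559 had no count in tree 6 and 4 counts in tree 5, was between 0.514 and 1.54 CPM in trees 1, 2 and 3, and reached 4.94 CPM in tree 4. Of the CPM summed over bluish trees, tree 4 made up 69.7% for ap_78725 and 64.5% for ap_16559, against 27.7% to 41.7% for the other 5 transcripts. In green trees ap_78725 lay between 0.203 and 36.8 CPM with a median of 0.932 CPM, and ap_16559 between 0.217 and 34.2 CPM with a median of 1.28 CPM. For both, green tree 3 was the one green tree above bluish tree 4. None of the 7 transcripts had all green trees above all bluish trees, an order found for 0.0771% of the transcripts tested.

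**Figure D1:**
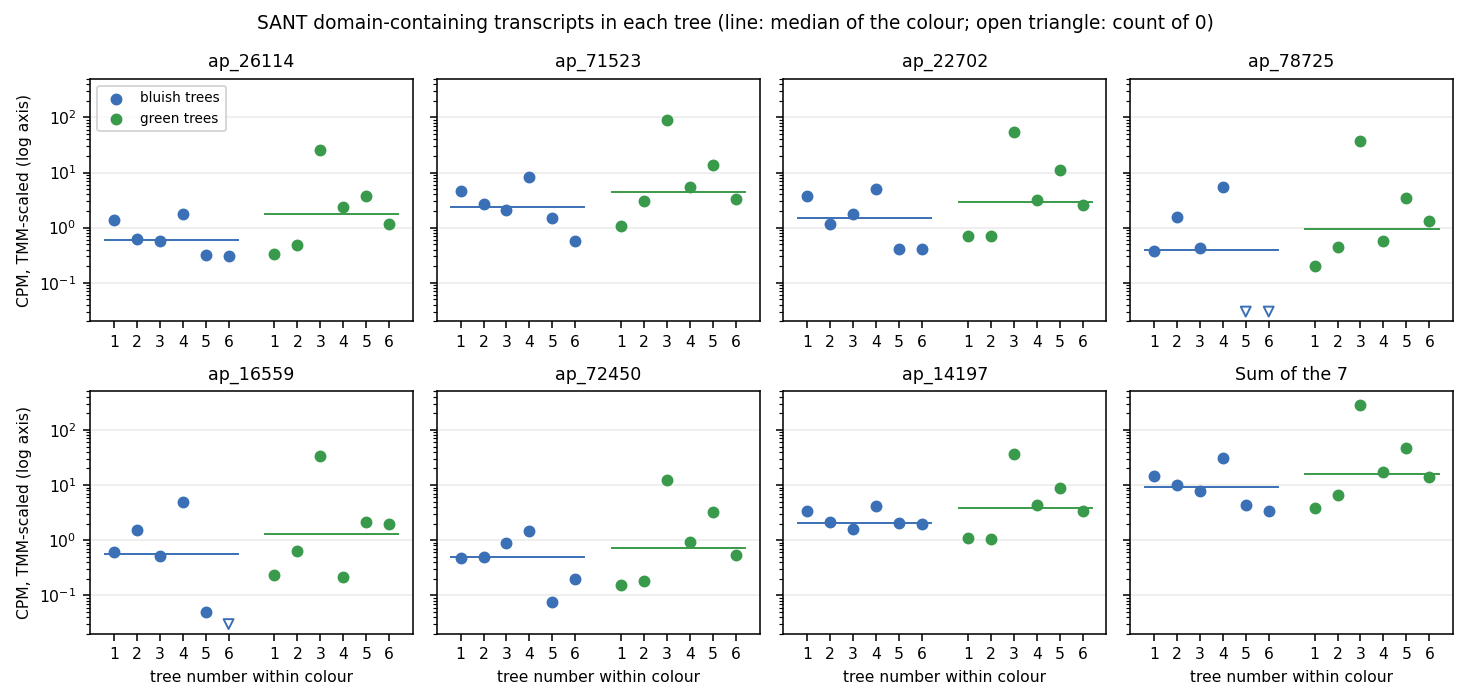
CPM (TMM-scaled, log axis) of each of the 7 transcripts and of their sum in the 6 bluish and 6 green trees, 1 point per library, with the median of each colour as a line and counts of 0 as open triangles. Green tree 3 is the highest point in every panel, and bluish tree 4 is the highest bluish tree in each. Most other green trees lie within the range of the bluish trees, except in the panel of ap_14197.

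The same libraries were high for several transcripts at once. After green tree 3, green tree 5 was next for 5 transcripts, and bluish tree 4 was next for ap_78725 and ap_16559, with green tree 5 behind it. Green tree 5 and bluish tree 4 ranked between 2 and 4 of 12 in all 7 transcripts. At the low end, bluish tree 6 ranked between 9 and 12, and bluish tree 5 between 8 and 12. Green trees 1 and 2 were also low, with ranks from 9 to 11 and from 6 to 12. The summed CPM of the 7 transcripts was 289 CPM in green tree 3, 46.1 CPM in green tree 5 and 31.1 CPM in bluish tree 4. It lay between 3.81 and 17.1 CPM in the other 4 green trees and between 3.45 and 14.7 CPM in the other 5 bluish trees. In green tree 3 the 7 transcripts together took 21255 counts, which was 0.0288% of the library.

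Only 12 of the 23352 transcripts tested (0.0514%) had more than 50% of their summed CPM over all 12 trees in green tree 3, a threshold chosen after the values were seen. The 7 SANT transcripts were 7 of these 12, with shares between 51.4% and 72.8%. A tree that carries so much of a transcript also moves its logFC, by which the 7 were chosen, so this count is a description. The other 5, named here for the same reason and after their values were seen, were ap_35145, ap_31651, ap_24381, ap_83306 and ap_25414. Of these, ap_35145 was at 265 CPM in green tree 3 and ap_31651 at 133 CPM, with no annotation for either. Both were next highest in green tree 5, at 7.31 and 3.01 CPM, and had a median of 0 CPM over the other 11 trees. The unannotated ap_24381, at 3.38 CPM in green tree 3 and 2.44 CPM in green tree 5, had no count in the other 10 trees. The tubulin transcript ap_25414 and the unannotated ap_83306 were next highest in bluish tree 3 and green tree 6, so they did not share the order of the SANT transcripts.

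How far the 7 transcripts kept fixed ratios was described by Pearson r of log2(CPM + 0.5) over the 12 trees, for the 21 possible pairs. The points share libraries and depth, and r is given without p. The median r was 0.94, between 0.84 and 0.98, and the median Spearman rho was 0.84, between 0.55 and 0.97. Subtracting the mean of each colour left the median r at 0.93, a value that still includes green tree 3 and pools the trees of both colours. Green tree 3 carried part of this. Without it the median r was 0.82, between 0.53 and 0.96, and without green tree 3, green tree 5 and bluish tree 4 it was 0.61, between 0.20 and 0.93.

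The pairs fell into blocks. Among ap_26114, ap_22702, ap_71523, ap_72450 and ap_14197, the 10 pairs had r between 0.94 and 0.98 over 12 trees and between 0.82 and 0.96 without green tree 3. The pair ap_78725 and ap_16559 had r 0.98, and 0.96 without green tree 3. The 10 pairs across these blocks had r between 0.84 and 0.93, and between 0.53 and 0.81 without green tree 3. The lowest was that of ap_16559 with ap_14197. These blocks were drawn after the correlations were seen. The transcript with the Amborella match, ap_71523, fell inside the larger block, and ap_78725 and ap_16559 shared the Sitka spruce match with the other 4 members of that block.

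**Figure D2:**
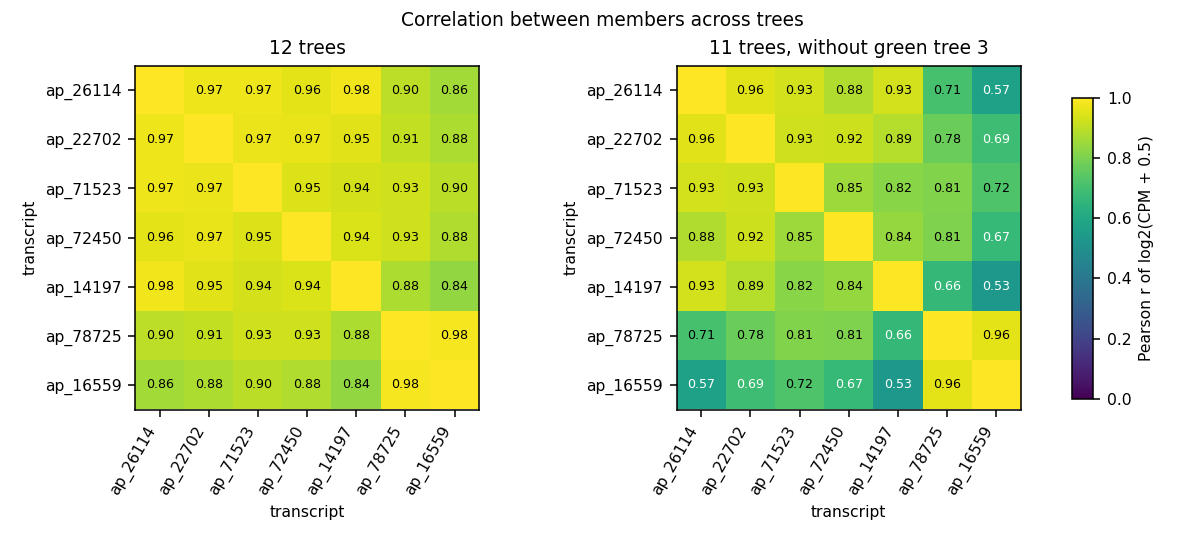
Pearson r of log2(CPM + 0.5) for each pair of the 7 transcripts, over all 12 trees (left) and over 11 trees without green tree 3 (right), on a colour scale from 0 to 1. The block of 5 transcripts at the upper left stays at 0.82 or above in the right panel and the pair at the lower right at 0.96, while the values between them fall to as low as 0.53.

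Ratios within the larger block moved by more than counting alone gives. Ratios are of reads, since transcript lengths were not used here, and only trees with more than 5 counts in both transcripts entered. The ratio of ap_26114 to ap_22702 had a median of 0.463 and ranged from 0.320 to 0.788 over the 12 trees. The SD of its log2 was 0.48, where counting error with a read pair as the unit gives 0.36. In green tree 3 this ratio was 0.461, close to the median. For ap_26114 to ap_71523 the median was 0.279 and the SD of the log2 ratio 0.48, against 0.33 from counting. From the lowest to the highest tree these ratios changed 2.46-fold and 3.51-fold, while the summed CPM spanned 3.45 to 289 CPM. They were the least variable of the 10 pairs in the block by SD, and the fold range over the 10 pairs had a median of 5.60 and reached 14.8 for ap_72450 to ap_14197 (SD 1.04, against 0.45 from counting).

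The counts of ap_78725 and ap_16559 were close to each other in several trees. They were 2712 and 2522 in green tree 3, 363 and 329 in bluish tree 4, and 118 and 116 in bluish tree 2. Green trees 4 and 5 departed from this, with 47 against 18 and 294 against 182 counts. Bluish tree 1 and green tree 6 departed in the other direction, with 25 against 41 and 86 against 129 counts. Over the 10 trees with enough counts the ratio had a median of 0.951 and ranged from 0.610 to 2.61, and the SD of its log2 was 0.63 against 0.42 from counting. The 10 ratios between these transcripts and the larger block had fold ranges from 7.66 to 30.2 with a median of 14.4, which overlap those within that block. The ratio of ap_26114 to ap_16559 went from 0.359 in bluish tree 4 to 10.8 in green tree 4, a 30.2-fold range.

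The make-up of the sum differed between trees. The share of ap_14197 was lowest in green tree 3, at 12.4%, where the sum was highest, and highest in bluish trees 6 and 5, at 57.0% and 45.9%, where the sum was 3.45 and 4.37 CPM. Not every tree with a low sum had such a share. It was 29.3% in green tree 1 (sum 3.81 CPM) and 16.1% in green tree 2 (sum 6.55 CPM). The shares of ap_71523 and ap_26114 varied less, from 16.4% to 46.4% and from 5.69% to 13.8%. In bluish trees 2 and 4, ap_78725 and ap_16559 each had between 15.1% and 17.5% of the sum, and in green tree 4 they had 3.33% and 1.27%.

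**Figure D3:**
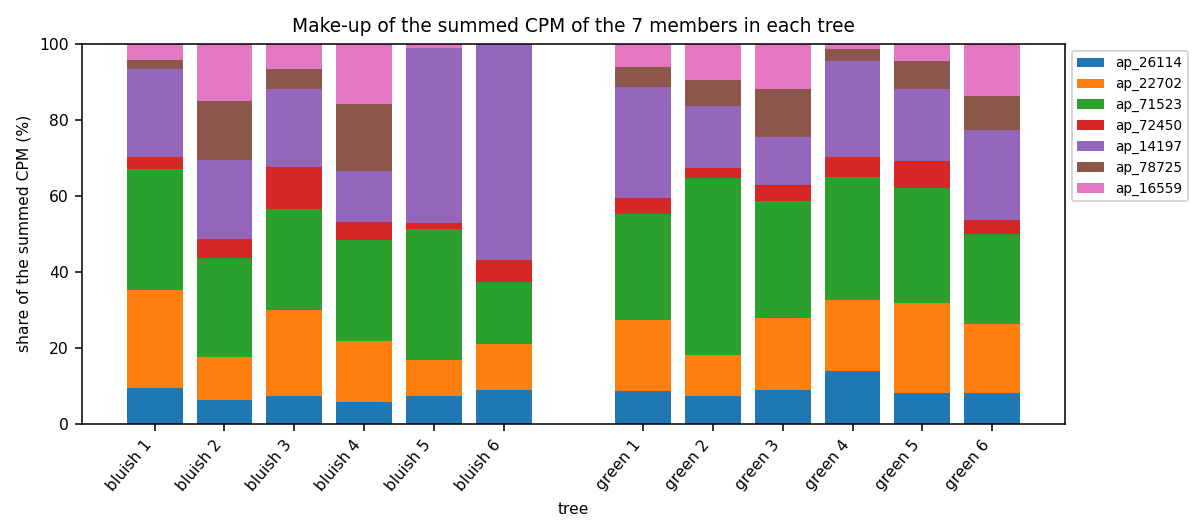
Share (%) of each of the 7 transcripts in their summed CPM, as stacked bars for the 6 bluish and 6 green trees. The share of ap_14197 is largest in bluish trees 5 and 6, and ap_78725 and ap_16559 have their largest joint shares in bluish trees 2 and 4.

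The colour difference rested largely on green tree 3. With all 12 trees logFC lay between −2.75 (SE 0.985, ap_26114) and −1.82 (SE 0.759, ap_14197), with a median of −2.45 against 0.00 over all transcripts tested. A logFC below −1 was found for 1.22% of the transcripts tested, and the choice of the 7 fixed this direction. In edgeR's quasi-likelihood fit (Benjamini-Hochberg FDR under 0.05, |logFC| over 1) 0 of the 7 were called, and 5 of the 7 had an unadjusted p under 0.05, as did 1478 of all transcripts (6.33%), 3.12% being higher in green trees. That test called 0.00428% of all transcripts in either direction and 0% as higher in green trees. DESeq2 gave no p for ap_78725 and ap_16559 and called 0 of the other 5 (0.0643% of the transcripts it gave an adjusted p were called higher in green trees). Also 0 of the 7 were called by the exact test of edgeR with transcript-wise dispersions (0.0385%). Under 1 dispersion common to all transcripts the exact test called 7 of 7, beside 1.22% of all transcripts tested. Since the contrast chose the 7, nothing is read from these counts.

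Without green tree 3, logFC was −0.95 (SE 0.670) for ap_26114, −0.80 (SE 0.811) for ap_22702, −0.75 (SE 0.863) for ap_72450, −0.71 (SE 0.677) for ap_71523 and −0.53 (SE 0.503) for ap_14197. It turned to 0.13 (SE 1.26) for ap_78725 and 0.31 (SE 1.14) for ap_16559. No other tree had this weight. Leaving out any of the other 11 trees in turn gave logFC between −3.91 and −1.72 over the 7 transcripts. Leaving out bluish tree 4 moved 6 of the 7 farthest from 0, with −3.91 for ap_78725 and −3.59 for ap_16559 at the extreme.

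Further trees were left out after the values were seen. Without green trees 3 and 5, logFC was −0.38 (SE 0.673) for ap_26114 and between 0.02 and 1.05 for the other 6 transcripts. Without the highest tree of each colour, green tree 3 and bluish tree 4, all 7 were negative again, between −1.33 for ap_26114 and −0.74 for ap_14197. The medians of the colours gave log2 ratios of bluish to green between −1.55 (ap_26114) and −0.57 (ap_72450). They moved with green tree 3 as well, and without it they lay between −0.94 (ap_26114) and −0.14 (ap_72450), with −0.15 for ap_16559. For each transcript 4 or 5 of the 6 green trees exceeded the bluish median, and 1 or 2 were below it. Among the 3 settings without green tree 3 the sign of logFC depended on which other high trees were kept for 6 of the 7 transcripts. The exception, ap_26114, was negative in each, and it had entered the set tested through green trees alone.

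**Figure D4:**
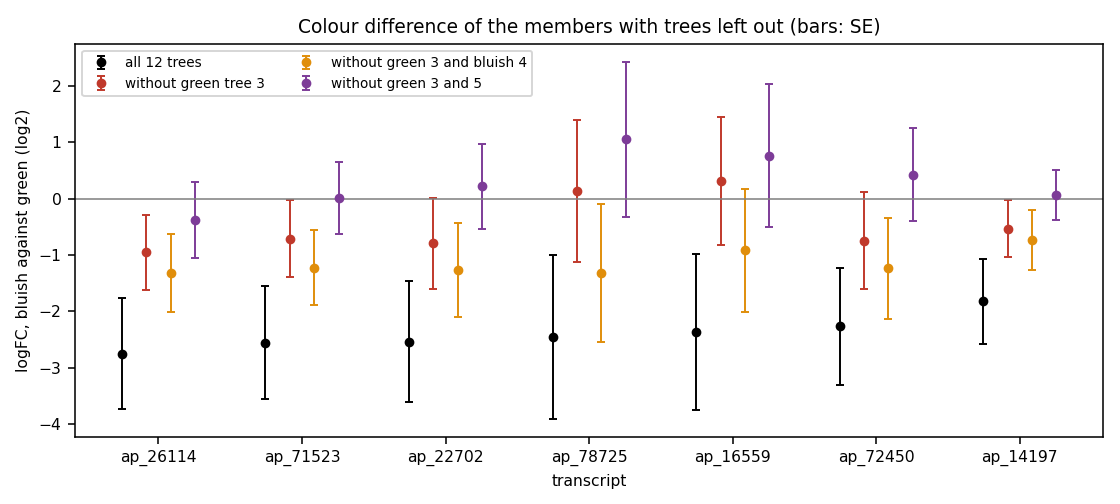
logFC of bluish against green trees (log2, bars are SEs) for each of the 7 transcripts with all 12 trees, without green tree 3, without green tree 3 and bluish tree 4, and without green trees 3 and 5. The black points lie between −2.75 and −1.82, and without green trees 3 and 5 the points lie between −0.38 and 1.05.

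The profile of the 7 transcripts, taken as the mean of their standardized log2(CPM + 0.5) values, was set beside every other transcript tested. The 7 themselves had r between 0.93 and 0.98 to this mean, which contains them. Only 5 of the other transcripts had r over 0.9, so that with the 7 they made up 0.0514% of the transcripts tested. Without green tree 3, 4 of the 7 and 6 other transcripts had r over 0.9, with the lowest r among the 7 at 0.81 (ap_16559). Each of the 7 had another of the 7 as its nearest transcript in the whole table, with r between 0.97 and 0.98. All 6 others were among the 50 nearest for each. Without green tree 3 this number fell to between 1 (ap_16559) and 5 (ap_72450). A SANT transcript then stayed nearest for 6 of the 7, the exception being ap_71523, whose nearest was ap_10165 at r 0.95, named here after its value was seen.

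Of the 10 transcripts most like the profile, 8 differed from it in size. The closest, ap_90124, matched a protein with a domain of unknown function and had r 0.93, and 0.82 without green tree 3. It was at 9.19 CPM in green tree 3 and between 1.96 and 4.54 CPM in the other trees, so its green tree 3 was 2.74 times the median of the other 11. The others of this kind were ap_75383, ap_13522, ap_28229, ap_14416, ap_4160, ap_17560 and ap_73537, with r between 0.87 and 0.92 and a green tree 3 of 1.26 to 2.62 times the median of the other 11. They were not in the annotated entries used here. The remaining transcripts were ap_31651 and ap_35145, already named for green tree 3, with r 0.90 for both and 0.65 and 0.62 without that tree.

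**Figure D5:**
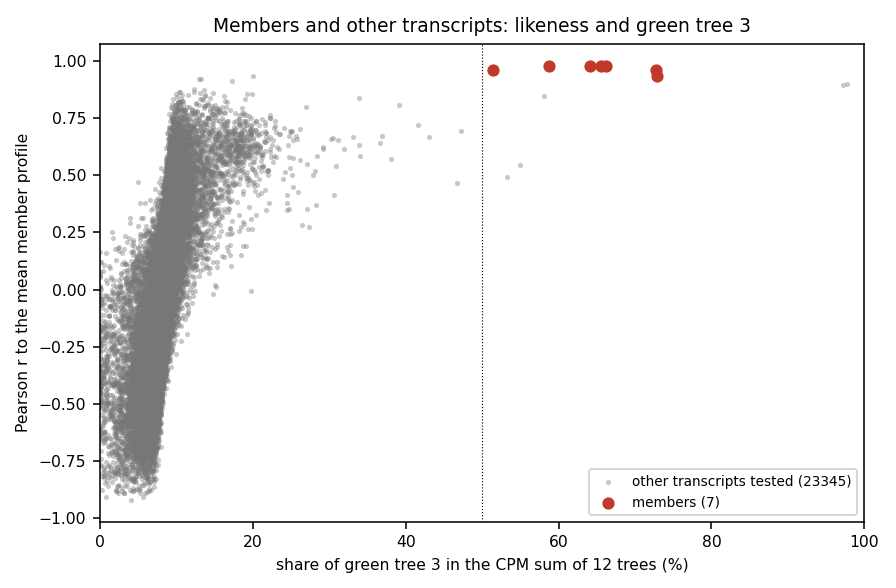
Pearson r to the mean profile of the 7 transcripts against the share of green tree 3 in the CPM sum of 12 trees (%), for the 7 transcripts (red) and all other transcripts tested (grey), with a dotted line at 50%. The red points lie between 51.4% and 72.8% with r of 0.93 or above, apart from nearly all grey points.

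Other transcripts of chromatin were set beside this profile, and none of them reached an r of 0.9 to it. The list held 15 transcripts that the study or the annotated entries name, some of which the study chose on these same trees, so their directions are not independent. In the quasi-likelihood fit of edgeR 0 of the 15 were called after Benjamini-Hochberg adjustment, with 5 higher in bluish and 0 higher in green trees at an unadjusted p under 0.05. Of all transcripts tested 3.21% were higher in bluish and 3.12% higher in green trees at that p, and of the annotated entries 12.4% and 20.5%. The annotated entries have no logFC above 0.949, which limits their bluish share. The 15 had a median logFC of 0.80. Their r to the SANT profile lay between −0.66 and 0.65 with a median of −0.25, against −0.01 over all transcripts tested. The other SANT transcript, ap_14096, had a mean of 5.66 ± 2.44 CPM over bluish and 7.91 ± 2.00 CPM over green trees (SD, n = 6 each). Its r was 0.13, and green tree 3, at 8.32 CPM, ranked 4 of 12.

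Among the histones, which form the core of the nucleosome, H2B ap_85346 had logFC −1.77 (SE 0.892) and was highest in green tree 6, at 7.76 CPM, with green tree 3 at 0.570 CPM. The other H2B transcript, ap_5279, was lowest in green tree 3, at 0.665 CPM. The H4 transcripts did not pass the test, with logFC 0.56 (SE 0.211) for ap_3700 and 0.49 (SE 0.192) for ap_385. Of the enzymes that methylate histones or DNA, the ASHR1 transcripts ap_24242 and ap_12277, chromomethylase ap_5633 and the SET domain transcripts ap_34496 and ap_74110 had r between −0.63 and 0.22. Of the proteins that bind chromatin, the chromo domain transcript ap_21479 was the one with green tree 3 highest, at 4.24 CPM, and its r of 0.65 fell to 0.17 without that tree. The PHD transcript ap_70273 had r −0.66 and the HMG box transcript ap_3248 r −0.25.

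Of the MYB factors, whose DNA-binding repeat the SANT domain resembles, ap_58314 was highest in green tree 3, at 3.48 CPM, and next highest in green tree 5, at 2.38 CPM, but had no count in 5 of the 12 trees. Its r was 0.67, and 0.43 without green tree 3. The other MYB transcripts had r between −0.41 and −0.06. None of the 4 was called by the same quasi-likelihood test, 1 of them (ap_6181, logFC 0.66) having an unadjusted p under 0.05.

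Transcripts whose best match is in a green alga, in hornbeam or in Anthurium were summed to see whether green tree 3 stood apart for them as well. These lists came from the annotated entries, part of a result list of the study on these same trees, with no logFC above 0.949. The 8 transcripts that matched green algae summed to 21.8 CPM in green tree 3, the next highest after green tree 4 at 52.2 CPM, with bluish trees between 4.77 and 13.0 CPM. The 58 that matched hornbeam (Carpinus fangiana) summed to 82.2 CPM in green tree 3, rank 8 of 12, where green tree 4 had 542 CPM and bluish trees lay between 45.6 and 138 CPM. The 31 that matched Anthurium amnicola summed to 151 CPM in green tree 3, rank 4, with the highest sum in green tree 5 at 237 CPM and bluish trees between 83.9 and 144 CPM. The tubulin transcript ap_25414, named above for green tree 3, was among these 31. The part of these organisms in the SANT result was not tested, and in bulk RNA more cells with a transcript and more RNA per cell cannot be told apart.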

How the data were processed

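Needles of 6 bluish and 6 green trees were analysed, 1 library per tree, with the colour taken from the labels. The extraction text deposited with the data names roots of maritime pine seedlings, whereas the labels and the study describe fir needles. The authors deposited raw counts for each assembled transcript. The authors trimmed paired-end reads of 150 bp with SeqTrimBB, assembled them with Trinity 2.11, dropped contigs under 400 bp, reduced redundancy with CD-HIT-EST, mapped pairs with BWA MEM and counted with sam2counts. The study used edgeR, and which of its tests is not given in the sources used here. It reports 457 DE transcripts, 173 higher in bluish and 284 higher in green trees. The same totals came out here when edgeR's exact test was run under 1 dispersion shared by all transcripts. No other setting tried here called more than 22. Whether both lists hold the same transcripts was not tested.

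Transcripts reaching 2 CPM in 2 or more libraries were tested with edgeR 4.0.16 in R 4.3.3 (limma 3.58.1), using TMM factors, colour as the only term and Benjamini-Hochberg adjustment over all transcripts tested. The SE is |logFC| divided by the square root of F. The set tested stayed fixed when trees were left out. The fit was tested on simulated counts. No library was a copy of another of its colour, since chi-square over its degrees of freedom was 53.6 to 184 for the 30 library pairs of like colour. DESeq2 1.42.0 and the other alternatives are given in the closing section. Tables and plots were made with pandas 2.3.3, matplotlib 3.10.9 and numpy 2.4.6 under Python 3.11.15. Annotation came from the 1714 transcripts of the study's result list that were used here, for names alone, and the fold changes and p-values in it were not used.

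The named transcripts were the 7 SANT transcripts, 15 other chromatin transcripts, 4 MYB factors, the transposable element entries and the 10 transcripts most like the SANT profile. These members and lists were chosen with earlier results of these data known. Sequences were not used here.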

Additional observations from a re-analysis of the deposited data

Results flagged for a closer look

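In 6 trees of 1 colour, the gap of a tree to the nearest tree was taken as a share of the whole range. A tree counted as far from the others where this exceeded Dixon's critical value for 6 samples. Chance gives that in about 1 of 20 groups of normally distributed values. The CPM were used without a log and are skewed, so this rate need not hold here. Of 18 groups examined, 10 had such a tree. In green trees it was tree 3 for all 7 transcripts, with 0.865 for ap_26114, 0.854 for ap_71523, 0.811 for ap_22702, 0.912 for ap_78725, 0.944 for ap_16559, 0.745 for ap_72450 and 0.780 for ap_14197. The sum of the 7 gave 0.852. In bluish trees it was tree 4 for ap_78725 (0.712) and ap_16559 (0.688), and the other 5 transcripts and the sum stayed below the value. These groups are not independent, because the transcripts vary together and were chosen for a difference that tree 3 carries. The library totals of neither colour had such a tree.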

How the results depend on the processing

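The 7 transcripts gave 0 calls under every alternative except the exact test under 1 common dispersion, which called 7. DESeq2 gave no p for ap_78725 and ap_16559. Over the 22 alternatives, 146 of 154 logFC values were negative. The 8 that turned positive were ap_78725 and ap_16559 with green tree 3 left out, and, without green trees 3 and 5, ap_71523 (0.0174), ap_22702 (0.21), ap_78725 (1.05), ap_16559 (0.76), ap_72450 (0.42) and ap_14197 (0.0626). The last of these settings was chosen after seeing the data. Left out in turn, the 12 trees gave −3.91 to 0.13 for ap_78725 and −3.59 to 0.31 for ap_16559.

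Over all transcripts, 1 was called by the quasi-likelihood test (1478 with an unadjusted p under 0.05), 22 by DESeq2, 457 by the exact test with a common dispersion, 13 with a dispersion for each transcript and 3 after filterByExpr, and 1 to 2 with a tree left out (2 without bluish tree 4 or green tree 6). The cause of these differences was not tested.

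The tree number is shared between the colours but the sources used here do not pair the trees. Deviations of same-numbered trees correlated at −0.17 to 0.11, and 1 of the 6 bluish trees correlated best with its own number. With the tree number as a replicate block, 0 transcripts and 0 of the 7 were called, with logFC of the 7 between −1.88 and −0.67.

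The median r between pairs was 0.84 as Spearman rho and 0.82 to 0.95 with a tree left out, the lowest without green tree 3. Of the 10 transcripts most like the profile, 6 stayed among the 10 highest with a pseudocount of 2 CPM, 2 with Spearman rho, and 0 to 9 with a tree left out (0 without green tree 3, 6 without bluish tree 1 or green tree 2). Their order therefore rests on green tree 3. Counts of 0 to 14 in bluish trees 5 and 6 limit the ratios of ap_78725, ap_16559 and ap_72450.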

Other observations

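Transposable elements were also high in green tree 3, at a smaller scale. Of the 58 annotated entries that name a retrotransposon, a transposon, a transposable element or Copia, 40 (69.0%) were highest in green tree 3, against 20.8% of all 1714 annotated entries and 11.7% of all transcripts tested. Green tree 4 was highest for 14 of the others. The annotated entries come from a result list of the study on these trees, so their directions are not independent of it. None of them had a logFC above 0.949 in the fit made here, so a transposable element more strongly higher in bluish trees would not be counted. Higher in green trees were 56 of the 58 (96.6%) and 60.7% of the annotated entries, and the cause of this difference was not tested. In the quasi-likelihood fit of edgeR 0 were called after Benjamini-Hochberg adjustment, and 11 had an unadjusted p under 0.05, all higher in green trees (19.0%, against 20.5% of the annotated entries and 3.12% of all transcripts tested). On the scale of log2(CPM + 0.5) of the colour means, their median ratio of bluish to green was −0.56, and −0.34 without green tree 3, where 56 were still higher in green trees. For the 7 SANT transcripts the same medians were −2.08 and −0.46.

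The median entry was at 2.30 times the median of the other 11 trees in green tree 3, with 0.5 CPM added to both, and the highest, ap_21719, a match to a Pol polyprotein of a retrotransposon, at 3.32 times. The SANT transcripts had a median of 24.3 times on this scale. The correlation of the transposable element entries with the SANT profile had a median r of 0.61 and a maximum of 0.74, over 12 trees that share green tree 3. The Copia entry ap_85660 was likewise highest in green tree 3, at 2.99 CPM, ap_75667 was highest in green tree 4, at 3.09 CPM, and ap_17684 was highest in green tree 5, at 2.77 CPM.

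Even counts were common among the low values, as read pairs on 1 transcript give. Of the 13 SANT values from 1 to 29 counts 84.6% were even, against 73.4% of all values of that size, and of the 26 from 30 to 99 counts 73.1%, against 59.8%.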
